A study of Mus musculus with 6 samples.

Results

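Eomes and 3 further genes used as markers of unipolar brush cells, namely Lmx1a, Calb2 and Plcb4, were followed through the RNA-seq data after YTHDF2 knockdown (KD) in cultured cerebellar granule cells (GCs). These 4 genes were taken by symbol from the 53421 genes of the count table, and all 4 were among the 17214 that passed the filter on low counts. The question was whether the lower level of Eomes after KD was shared by the other markers of the cell type. The members were chosen by the log2 fold change of Eomes in this same comparison and with the values of the other markers known, so their values are given as a description and without a test.

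GCs were dissociated from cerebella of C57BL/6 mice, labelled postnatal day 8, and received a short hairpin RNA by lentivirus. The hairpin was directed against Ythdf2 (shYthdf2, 3 libraries) or was a control (shCtrl, 3 libraries), and all cultures went through puromycin selection, so every library comes from infected and selected cells. The cultures are primary dissociates of whole cerebella, the knockdown libraries carry 1 hairpin, and the libraries of both groups are numbered 1, 2 and 4. Which 3 are the knockdown differs between the sample titles and the library names. The names were followed here, and the titles would turn round each direction below.

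YTHDF2 is a reader protein that binds mRNA carrying N6-methyladenosine and promotes its decay. Unipolar brush cells are excitatory interneurons of the cerebellar granular layer that, like GCs, arise from the rhombic lip. They receive mossy fibers on a brush-like dendrite and pass the signal on to GCs. Eomes (also called Tbr2), a T-box transcription factor, is retained in these cells after they leave the rhombic lip, and Lmx1a, a LIM-homeodomain factor, marks the same lineage. Calb2 encodes the calcium buffer calretinin and labels one class of unipolar brush cells, and Plcb4, a phospholipase C that acts downstream of metabotropic glutamate receptors, labels the other. Calb2 is also made by young GCs and Plcb4 by Purkinje cells, so that only the first 2 members are close to specific in the cerebellum.

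The knockdown itself was checked first, at the level of Ythdf2 mRNA only. The paper reports efficient knockdown of YTHDF2 protein in cultured GCs by western blot, which these data do not measure. In replicates 1, 2 and 4, Ythdf2 had 617, 840 and 627 normalized counts with shCtrl and 500, 402 and 500 with shYthdf2. Normalized counts are counts brought to a common library size by TMM factors. The shYthdf2 mean was 67.2% of the shCtrl mean and the groups did not overlap, but the log2 fold change of -0.57 (standard error 0.16) had an adjusted p = 0.125 in edgeR's quasi-likelihood test. The adjusted p was 0.0406 with DESeq2, 0.0465 with a term for replicate 2 in edgeR, and 0.00124 in edgeR without both libraries of replicate 2, where the log2 fold change was -0.32. In these fits 7.67%, 22.1% and 52.7% of all genes had an adjusted p under 0.05, in that order. With a library of replicate 1 or 4 left out, the edgeR adjusted p of Ythdf2 was 0.306 to 0.363, and 0 genes in all passed. Depth was similar across the libraries, at 17246821 to 21546595 counts. Replicate 2 stood apart in both groups: Pearson's r across genes was 0.992 and 0.991 between replicates 1 and 4 of shCtrl and of shYthdf2, and 0.965 to 0.977 between replicate 2 and the others of its group. What sets replicate 2 apart was not tested, and members are therefore given by replicate.

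Eomes (ENSMUSG00000032446) lies on chromosome 9 of GRCm38 from 118478212 to 118486132 on the plus strand. The 300 bases around its RefSeq start, from 250 before to 50 after it, are shown. Eomes was taken as the member with the lowest log2 fold change. Plcb4, at its first RefSeq start, was taken as the member that was higher in every library. Both windows are RefSeq sequences of GRCm38.p6, from chr9:118477939-118478238 for Eomes and chr2:135659297-135659596 for Plcb4, on the plus strand. The gene limits given in this report are those of GENCODE and begin elsewhere. That of Eomes begins inside its window, after the RefSeq start, and that of Plcb4 at 135659011, before its window. Capitals mark the TATA-like word TATATAA and the CCAAT box.
Eomes: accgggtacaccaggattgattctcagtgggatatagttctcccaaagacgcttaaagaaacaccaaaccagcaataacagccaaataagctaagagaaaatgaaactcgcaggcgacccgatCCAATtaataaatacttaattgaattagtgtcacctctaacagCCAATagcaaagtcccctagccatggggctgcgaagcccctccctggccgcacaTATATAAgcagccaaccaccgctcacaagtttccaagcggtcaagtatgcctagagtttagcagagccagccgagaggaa
Plcb4: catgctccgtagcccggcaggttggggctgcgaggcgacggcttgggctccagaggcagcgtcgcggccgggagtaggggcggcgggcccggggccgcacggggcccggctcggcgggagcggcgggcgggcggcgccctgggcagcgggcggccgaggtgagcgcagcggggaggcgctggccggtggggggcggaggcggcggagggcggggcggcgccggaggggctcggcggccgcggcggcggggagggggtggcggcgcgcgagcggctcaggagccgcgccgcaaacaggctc
The Eomes window holds TATATAA beginning 30 bases before the RefSeq start and CCAAT beginning 127 and 84 bases before it, and its GC content is 47.3%. The Plcb4 window holds neither word, has a GC content of 84% and 50 CpG dinucleotides against 10 for Eomes. Over all 32851 promoter windows of the table, 3.24% hold TATATAA and 37.4% hold CCAAT on either strand, and the median GC content is 52.7%. These words were picked after the sequences were read. A T-box core (TCACACC), a homeodomain core (TAATTA), an E-box used by Atoh1 (CAGATG) and TATAAA, searched on both strands, had 0 matches in the 4 windows found for 3 members, and occur in 3.98%, 5.29%, 17.2% and 13.6% of all windows. The table held no window for Calb2.

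In replicates 1, 2 and 4, Eomes had 1749, 1174 and 1698 normalized counts with shCtrl and 359, 641 and 325 with shYthdf2. The groups did not overlap, and replicate 2 was the lowest of the shCtrl libraries and the highest of the shYthdf2 libraries. Eomes averaged 1540 ± 318 with shCtrl and 442 ± 173 with shYthdf2 (SD, n = 3), which left 28.7% of the control level. On the log2 scale the fitted difference was -1.80 (standard error 0.29), and 80 of the 17214 genes tested had a lower one. In bulk RNA, fewer cells of a type and less RNA per cell cannot be told apart. The antisense gene Gm33460, which shares 118 exon bases with Eomes, never exceeded 4 counts, whereas Eomes had 307 or more in each library.

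Lmx1a (ENSMUSG00000026686, chromosome 1 from 167689237 to 167848741) was close to the limit of detection. For replicates 1, 2 and 4 its normalized counts were 33.7, 13.5 and 27.4 with shCtrl and 20.9, 21.3 and 10.6 with shYthdf2. The groups overlapped, and the order of the groups in replicate 2 was opposite to that in replicates 1 and 4. Lmx1a averaged 24.9 ± 10.3 with shCtrl and 17.6 ± 6.06 with shYthdf2 (SD, n = 3), a log2 difference of -0.50 (standard error 0.44). With 10 to 38 counts in a library, a fall of Lmx1a as large as that of Eomes was not shown, and a smaller one could not be told from the spread.

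Calb2 (ENSMUSG00000003657, chromosome 8 from 110137502 to 110168210, minus strand) did not follow Eomes. Its normalized counts were 2061, 4086 and 2069 with shCtrl and 3787, 4921 and 3830 with shYthdf2, again for replicates 1, 2 and 4. Within each replicate number the shYthdf2 library was the higher one, but the shCtrl library of replicate 2 lay above the shYthdf2 libraries of replicates 1 and 4, so the groups overlapped. Calb2 averaged 2739 ± 1167 with shCtrl and 4180 ± 643 with shYthdf2 (SD, n = 3), and the fitted log2 difference was 0.61 (standard error 0.28). Without replicate 2 of shCtrl the log2 fold change was 1.02.

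Plcb4 (ENSMUSG00000039943, chromosome 2 from 135659011 to 136014593) also had more counts after KD. With shCtrl there were 1531, 1463 and 1752 normalized counts in replicates 1, 2 and 4, and with shYthdf2 2180, 1954 and 2160. The lowest value with shYthdf2 exceeded the highest with shCtrl, and replicate 2 was the lowest library of each group. Plcb4 averaged 1582 ± 151 with shCtrl and 2098 ± 125 with shYthdf2 (SD, n = 3), a log2 difference of 0.41 (standard error 0.11). The noncoding genes Gm14209, Gm14210 and Gm14211 overlap Plcb4 without sharing exon bases and never exceeded 5 counts.

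**Figure D1:**
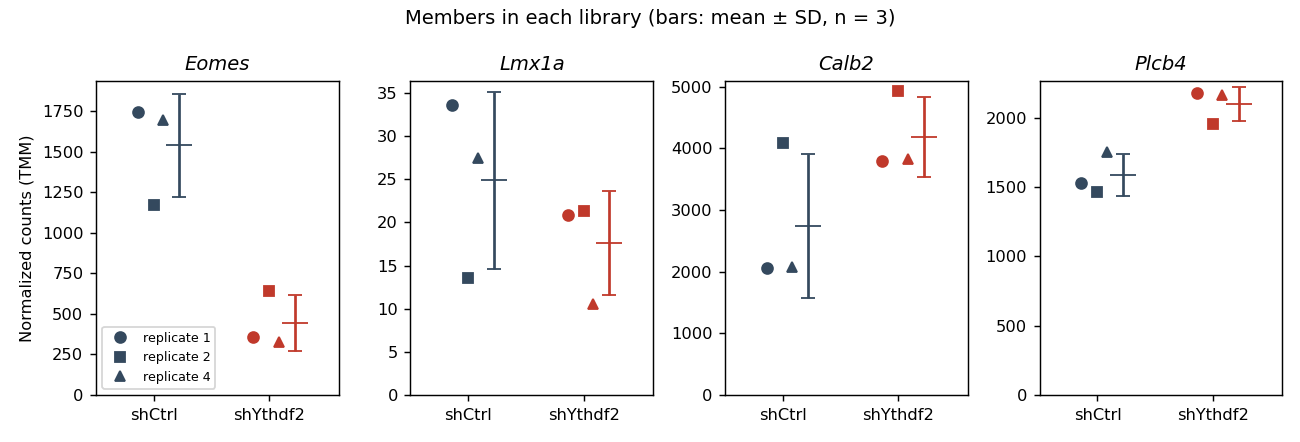
Normalized counts of the 4 members (y axis, from 0) in the shCtrl and shYthdf2 libraries (x axis), with a symbol for each replicate number and bars for the mean ± SD (n = 3). Eomes is lower in every shYthdf2 library, Plcb4 is higher in every shYthdf2 library, and the groups overlap for Lmx1a and Calb2.

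Of the members, 2 of 4 had groups that did not overlap, 1 lower and 1 higher. Among all genes tested, 25.9% did not overlap (13.4% lower and 12.6% higher), and since the comparison chose the members nothing is read from their count. By replicate number, the log2 ratio of shYthdf2 to shCtrl was -2.28, -0.87 and -2.38 for Eomes in replicates 1, 2 and 4. For Lmx1a it was -0.69, 0.65 and -1.37. The ratio of Calb2 was 0.88, 0.27 and 0.89, and that of Plcb4 was 0.51, 0.42 and 0.30. Replicate 2 thus had the smallest difference for Eomes and Calb2, while its Ythdf2 ratio was the largest, at -1.06 against -0.30 and -0.33 in replicates 1 and 4. Without both libraries of replicate 2, the log2 fold changes were -2.34 for Eomes, -0.96 for Lmx1a, 0.88 for Calb2 and 0.40 for Plcb4.

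**Figure D2:**
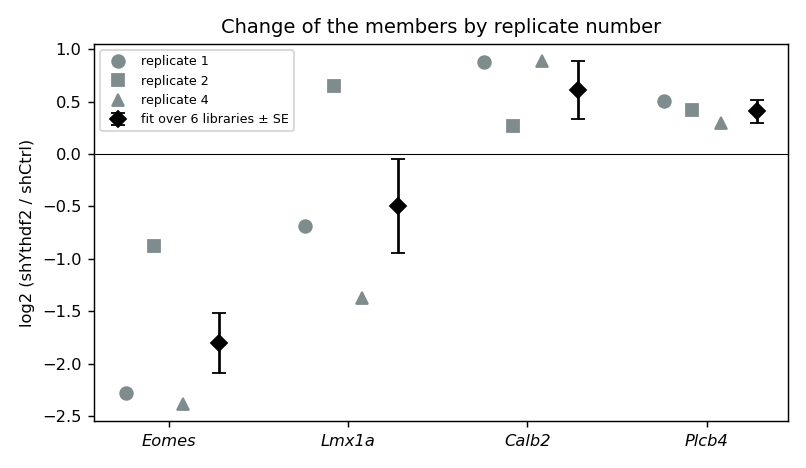
log2 ratio of shYthdf2 to shCtrl (y axis) for each member (x axis), between libraries of the same replicate number (grey) and from the fit over the 6 libraries with its standard error (black diamonds). Eomes is below 0 in all 3 replicates, Calb2 and Plcb4 are above 0 in all 3, and Lmx1a changes sign in replicate 2.

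To compare levels between genes, normalized counts were divided by exon length and scaled to library size (RPKM). In the shCtrl libraries Calb2 had an RPKM of 82.8 ± 35.3 (SD, n = 3), Eomes had 19.5 ± 4.04, Plcb4 had 9.30 ± 0.890 and Lmx1a had 0.386 ± 0.160. These neighbours in the order did not overlap in their mean ± SD. In the shYthdf2 libraries the order was Calb2 at 126 ± 19.4, Plcb4 at 12.3 ± 0.735, Eomes at 5.60 ± 2.20 and Lmx1a at 0.273 ± 0.0941 (SD, n = 3), so that Eomes and Plcb4 had changed places. Among the 16619 genes tested with an annotated length, 82.7% had a lower shCtrl level per length than Eomes, 97.5% than Calb2, 66.8% than Plcb4 and 11.6% than Lmx1a.

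The label was then checked against a wider list of 14 genes known from unipolar brush cells, which holds the members and 10 others. Those described here are the glutamate receptor Grm2, the phospholipase Plcb1, the neuropeptides Grp and Nmb, the calcium pump regulator Sln, the diacylglycerol kinase Dgkb, the actin bundler Espn and the vesicular glutamate transporter Slc17a6. Per length, these genes fell into a high and a low part. Slc17a6 (41.0 ± 7.60) and Plcb1 (17.6 ± 0.860) lay near Calb2 and Eomes in shCtrl (SD, n = 3). Nmb (3.03 ± 0.633) lay below them, followed by Grm2. Grp, Dgkb, Sln and Espn had means of 0.0885 to 0.397, on the level of Lmx1a. Sln had at most 8 counts in a library and was not tested. The genes at a high level are ones that other cells of the cerebellum use as well, while Lmx1a, Sln, Espn and Grp were near the floor, so that apart from Eomes the cultures gave little RNA of markers that single out the cell type.

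**Figure D3:**
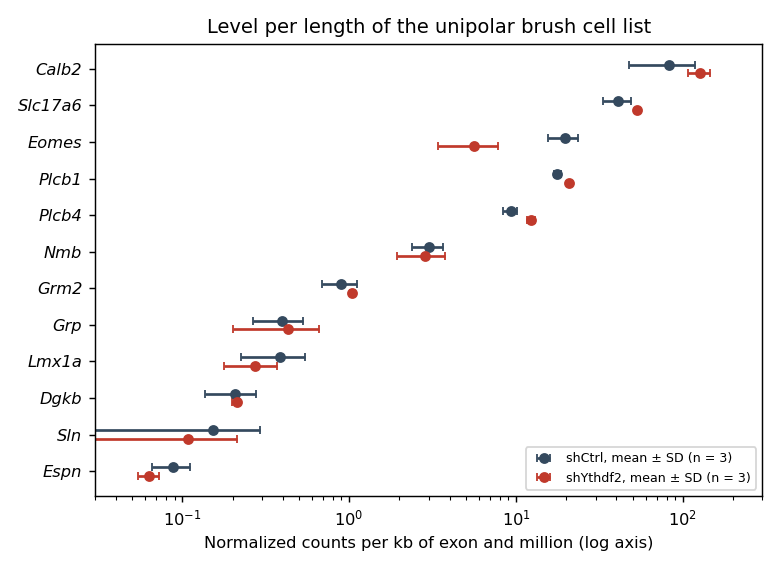
RPKM (normalized counts per length of exon, scaled to library size; x axis, log scale) of the genes of the unipolar brush cell list named in the text (y axis), as mean ± SD (n = 3) for shCtrl and shYthdf2; bars that would pass the left edge, those of Sln, end there. Eomes is the gene whose groups lie furthest apart, and Lmx1a lies among the genes with the lowest levels.

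After KD the other genes of the list did not move with Eomes. Of the 10, 9 were tested, 5 of them higher and 4 lower, with a median log2 fold change of 0.03 against 0.01 over all genes, where 50.8% were higher and 49.2% were lower. In edgeR's test 0 of the 9 had an adjusted p below 0.05, against 0.604% of all genes (0.244% higher and 0.36% lower). DESeq2 and limma-voom also called 0 of the 9, where they called 7.67% and 0.139% of all genes. With the replicate block 0 of the 9 were called (1.35% of all genes), and with a term for replicate 2 there were 2 (22.1% of all genes). At an unadjusted p under 0.05 there were 2, both higher, where 20.1% of all genes were called (9.5% higher and 10.6% lower), so the share of 2 in 9 is near the background. They were Slc17a6, at 0.37 on the log2 scale (standard error 0.14, edgeR adjusted p = 0.193), and Plcb1, with 0.25 (standard error 0.09, edgeR adjusted p = 0.183). Without replicate 2 of shCtrl, where 18.3% of all genes were called, the log2 fold change of Slc17a6 was 0.54 (edgeR adjusted p = 0.00572). With a library of replicate 1 or 4 left out, its edgeR adjusted p was 0.446 to 0.528, and 0 genes in all were called. Without both libraries of replicate 2, Plcb1 and Slc17a6 were called, both higher, where 52.7% of all genes were.
Grp, Nmb, Dgkb, Grm2 and Espn had log2 fold changes from -0.48 to 0.20, with standard errors of 0.23 to 0.49, and their groups overlapped.

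**Figure D4:**
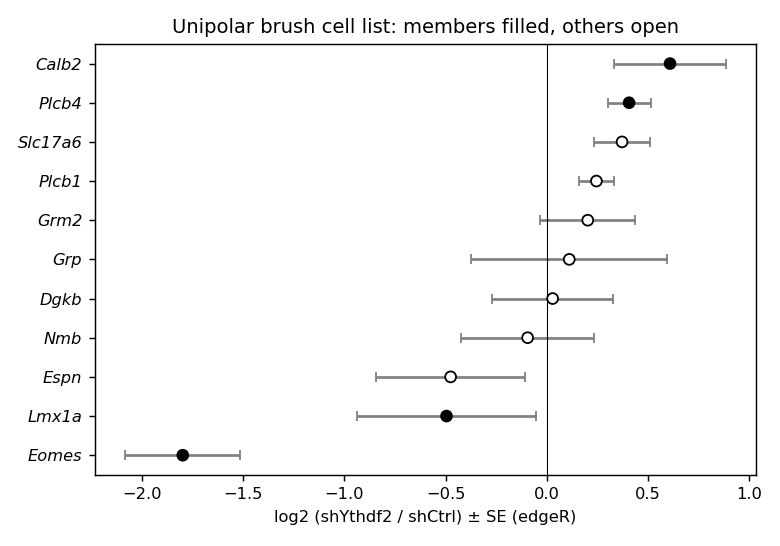
log2 fold change of shYthdf2 over shCtrl with its standard error from edgeR (x axis) for the tested genes of the unipolar brush cell list named in the text (y axis), with the 4 members filled and the other genes open. Eomes, at -1.80, lies apart from the others, which run from -0.50 to 0.61.

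The pathway that Plcb4 belongs to runs from metabotropic glutamate receptors such as mGluR5 (Grm5) through the G proteins Gnaq and Gna11 to the phospholipases C beta, the IP3 receptors and protein kinases C, with Homer proteins as scaffolds. All 20 genes of this list were tested. The G protein Gna11 alone passed the adjusted threshold in edgeR's test, which 0.604% of all genes passed. It fell by 0.70 on the log2 scale (standard error 0.08, edgeR adjusted p = 0.0402). Its mean was 3055 ± 75.5 (SD, n = 3) normalized counts with shCtrl and 1877 ± 65.1 (SD, n = 3) with shYthdf2. Its 3 values were 3042, 3136 and 2986 in shCtrl and 1879, 1941 and 1811 in shYthdf2 for replicates 1, 2 and 4, so it was lower by a like amount in each replicate. The adjusted p of Gna11 was 0.241 to 0.286 without any one of the 4 libraries of replicates 1 and 4, where 0 genes in all passed, while its log2 fold change stayed between -0.73 and -0.68. Its close relative Gnaq had a log2 fold change of 0.00 (4503 ± 177 against 4514 ± 40.0 normalized counts, SD, n = 3).
Grm5 had 1900, 3204 and 2028 normalized counts in shCtrl and 5330, 4883 and 5047 in shYthdf2. The groups did not overlap, and the log2 difference was 1.10 (standard error 0.20, edgeR adjusted p = 0.0572). Without replicate 2 of shCtrl, where 18.3% of all genes were called, it was 1.37 (edgeR adjusted p = 8.80e-04). With a library of replicate 1 or 4 left out, the edgeR adjusted p of Grm5 was 0.246 to 0.294, and 0 genes in all passed. Homer2 (0.50, standard error 0.18) and Homer1 (-0.46, standard error 0.14) had groups that did not overlap and differed in direction, with edgeR adjusted p-values of 0.184 and 0.145. In the same fit without replicate 2 of shCtrl, with its 18.3% of all genes called, these were 0.00236 and 0.00618. With a library of replicate 1 or 4 left out, they were 0.440 to 0.500 for Homer2 and 0.403 to 0.450 for Homer1. In the phospholipase C beta family, Plcb3 and Plcb2 had 137 ± 15.2 and 22.2 ± 2.94 (SD, n = 3) normalized counts in shCtrl, with log2 fold changes of 0.12 and -0.04. The other genes described, Itpr1, Itpr2, Itpr3, Trpc1, Homer3, Prkca, Prkcb and Prkcd, did not pass the test.

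Eomes was the most abundant T-box factor per length in shCtrl. Of the 16 others, 7 were tested (Tbr1, Tbx2, Tbx3, Tbx6, Tbx15, Tbx18 and Mga), and 0 reached an adjusted p-value under 0.05 in edgeR, DESeq2 or limma-voom, or an unadjusted p under 0.05 in edgeR. Of all genes, 0.604%, 7.67%, 0.139% and 20.1% did, in that order. Mga, a T-box protein of the Myc network, came next at an RPKM of 11.4 ± 1.48 (SD, n = 3), and its log2 fold change was 0.10. Tbr1, the nearest relative of Eomes, which marks projection neurons of the cerebellar nuclei, had 60, 49 and 52 normalized counts in shCtrl and 49, 124 and 54 in shYthdf2. Its log2 fold change of 0.50 (standard error 0.38) rested on replicate 2 of shYthdf2 and was -0.06 without it. T (brachyury), which was removed by the filter, had 3, 4 and 0 counts in shCtrl and 19, 8 and 19 in shYthdf2. Of the rest, 7 T-box genes had at most 3 counts in any library.
Among the LIM-homeodomain factors, Lmx1b, the paralog of Lmx1a, had 1 to 7 counts and was not tested. Lhx1 and Lhx5, which mark Purkinje cells and inhibitory interneurons, had 1419 ± 237 and 452 ± 109 (SD, n = 3) normalized counts in shCtrl and log2 fold changes of 0.03 and 0.12. Lhx3 had 12 to 15 normalized counts in shCtrl and 27 to 31 in shYthdf2, which was 1.07 on the log2 scale (standard error 0.29, edgeR adjusted p = 0.115). Its edgeR adjusted p was 0.0471 without replicate 2 of shCtrl, where 18.3% of all genes were called. With a library of replicate 1 or 4 left out it was 0.351 to 0.411, and 0 genes in all were called.
Calb1, the calbindin of Purkinje cells and a relative of Calb2, had 389 ± 30.4 (SD, n = 3) normalized counts in shCtrl and 283 ± 76.2 in shYthdf2. Its log2 fold change of -0.45 (standard error 0.20, edgeR adjusted p = 0.263) had the opposite sign to that of Calb2. It was -0.69 without replicate 2 of shYthdf2 (edgeR adjusted p = 0.0533). Without both libraries of replicate 2, where 52.7% of all genes were called, it was -0.76 (edgeR adjusted p = 1.43e-05). With a library of replicate 1 or 4 left out, the edgeR adjusted p of Calb1 was 0.509 to 0.601. Pvalb, the other buffer tested, had a log2 value of -0.18 (standard error 0.45).

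GCs and unipolar brush cells share the rhombic lip as origin, and genes of this lineage were listed next. Of 17 genes, 15 were tested, 8 higher and 7 lower (median log2 fold change 0.07), and 0 passed the adjusted threshold in edgeR, 2 with an unadjusted p under 0.05, 2 in DESeq2 and 0 in limma-voom. The shares of all genes were 0.604%, 20.1%, 7.67% and 0.139%, in that order, and nothing is read from 2 of 15. The GC factors Zic1, Zic2 and Pax6 had log2 fold changes of 0.07, 0.00 and -0.07. Both genes called by DESeq2 were lower: Barhl1, a homeodomain factor of GCs, at -0.61 (standard error 0.12, edgeR adjusted p = 0.0651) and Neurod1, which drives GC differentiation, at -0.32 (standard error 0.09, edgeR adjusted p = 0.124). Atoh1, the factor that defines rhombic lip progenitors, had 13 to 18 normalized counts in shCtrl and 19 to 34 in shYthdf2, which was 0.78 on the log2 scale (standard error 0.34, edgeR adjusted p = 0.255). Wls, another rhombic lip marker, differed by 0.38 on the log2 scale (standard error 0.19), and Barhl2, Meis1, Zic4, Neurod2, Nhlh1, Nhlh2 and Reln lay between -0.21 and 0.27.

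Markers of the other cell types that the cultures could hold are given beside the members, and their part in the result was not tested. In each of the 9 lists edgeR's adjusted test called 0 genes, limma-voom 0 and DESeq2 0 to 3. With the replicate block 1 Purkinje cell marker (Rora) and 1 marker of GABAergic interneurons (Gad1) were called, and 0 in the other lists. At an unadjusted p under 0.05 edgeR called 0 to 4 higher and 0 or 1 lower, the 4 among 10 tested Purkinje cell markers. Of all genes, 9.5% were called higher and 10.6% lower at this threshold. The adjusted tests called 0.604% of all genes with edgeR, 0.139% with limma-voom, 7.67% with DESeq2 and 1.35% with the block. The list of mature GCs holds the member Calb2, which young GCs also make, and that of Purkinje cells holds the member Plcb4. Both members were chosen on this comparison, so nothing is read from the counts of either list. The median log2 fold change was 0.25 over 11 markers of mature GCs, led in level by Fat2, 0.41 over 8 of proliferating progenitors (Mycn), 0.17 over 10 of Purkinje cells (Plcb4 itself) and 0.12 over 11 of GABAergic interneurons (Gad1). It was -0.21 over 6 markers of choroid plexus and ependyma (Otx2), a tissue that also uses Lmx1a, 0.31 over 10 of astrocytes with Bergmann glia (Gfap) and 0.46 over 10 of vascular cells with fibroblasts (Col1a1). All 10 tested oligodendrocyte markers, led by Mbp, and all 8 of microglia, led by C1qc, were higher in shYthdf2, with medians of 0.63 and 1.17. Their summed normalized counts overlapped between the groups, at 5849 to 20918 in shCtrl and 15863 to 20797 in shYthdf2 for oligodendrocytes and 258 to 1134 against 547 to 1631 for microglia. In both lists the highest shCtrl library was replicate 2. Within replicate 2, 7 of the 8 microglia markers, 6 of the 10 oligodendrocyte markers and 8 of the 10 astrocyte markers were lower in shYthdf2, against 0, 0 and 1 in replicates 1 and 4.

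The sum of the Purkinje list was 4042 to 4242 normalized counts in shCtrl and 5266 to 5408 in shYthdf2. Plcb4, a member chosen on this comparison, was its most abundant gene and is part of this sum. Of the 10 genes tested, 5 were higher and 5 lower. In 4 the groups did not overlap and were higher, in 0 lower, against 12.6% and 13.4% of all genes. The member Plcb4 is among the 4, so nothing is read from this count. Levels within the list differed. Calb1 had 389 ± 30.4 (SD, n = 3) normalized counts in shCtrl. Pcp2 had 30 to 44 normalized counts in shCtrl and 29 to 41 in shYthdf2, and Ppp1r17 had 5 to 7 and 1 to 12. Pcp4, at 34, 82 and 25 in shCtrl and 107, 104 and 129 in shYthdf2, differed by 1.26 on the log2 scale (standard error 0.43, edgeR adjusted p = 0.164). It was 1.93 without replicate 2 of shCtrl (edgeR adjusted p = 0.00527), where 18.3% of all genes were called. With a library of replicate 1 or 4 left out, the edgeR adjusted p of Pcp4 was 0.417 to 0.463, and 0 genes in all were called.

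Genes whose pattern over the 6 libraries was most like that of Eomes were found by Pearson's r of log2 CPM (counts scaled to library size), among 12558 genes with a symbol and a mean of at least 50 normalized counts. The points share 2 groups and 3 replicate numbers, so r is a description and carries no p-value. The 10 closest had r from 0.9956 to 0.9997. They were Ergic1 (a protein of transport between endoplasmic reticulum and Golgi), Pak6 (a p21-activated kinase), Arhgap23, Dusp5 (a phosphatase of nuclear ERK), Tmc7, Card19, Mpp2 (a membrane scaffold), Tmem238, Fez2 and Atp6ap2 (an accessory subunit of the vacuolar proton pump). All were lower in shYthdf2, with log2 fold changes from -0.45 to -2.61. Pak6 had 505 ± 129 (SD, n = 3) normalized counts in shCtrl and 82.3 ± 47.3 in shYthdf2, and Dusp5 had 5687 ± 1051 and 2142 ± 701. When deviations from the group means were used in place of the levels, r with Eomes was 0.966 to 0.997 for these genes. The genes were picked by an r near 1 over the same 6 libraries, which leaves little room for a low r here. Nothing further is read from it. The rank order of the libraries was that of Eomes for 7 of the 10, and for 128 of the 12558 genes.

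**Figure D5:**
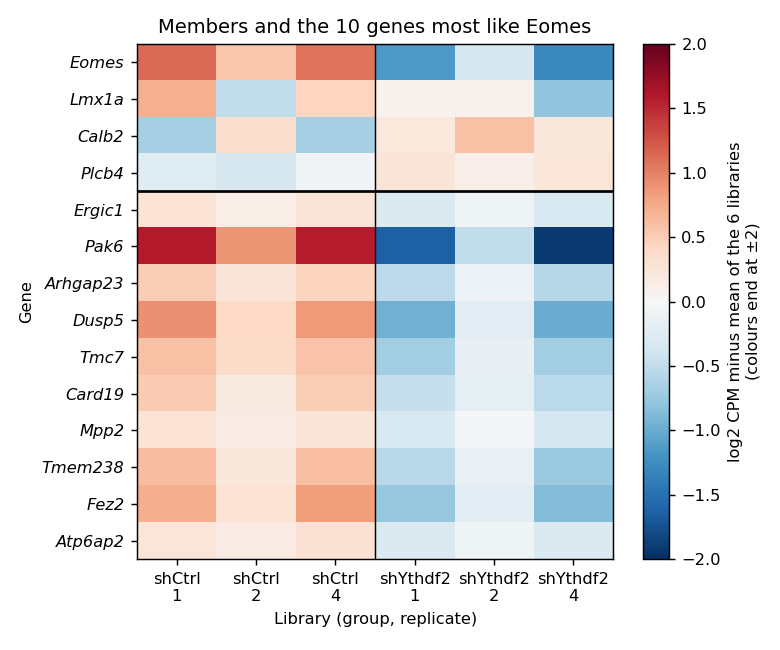
log2 CPM minus the mean of the 6 libraries (colour, ending at ±2) for the 4 members (above the line) and the 10 genes most like Eomes (below it), with shCtrl libraries on the left and shYthdf2 libraries on the right. In the Eomes-like genes replicate 2 is the palest library of both groups.

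Calb2 and Plcb4 were not among these genes, and Lmx1a was below the minimum mean for the search. Pearson's r with Eomes over the 6 libraries was 0.63 for Lmx1a, -0.70 for Calb2 and -0.87 for Plcb4, and over deviations from the group means it was 0.74, -0.19 and -0.17. The 3 genes most like Calb2 were Mog, a protein of the myelin sheath, Ptn, a secreted growth factor, and Unc13c, a presynaptic priming protein of GCs, with r of 0.9993, 0.9991 and 0.9989. Those most like Plcb4 were Stxbp5, Duox1 and Zfp810 (0.9981, 0.9981 and 0.9936), and those most like Lmx1a were Cab39l, Adamtsl4 and Tbc1d8b (0.991, 0.981 and 0.974). These sets shared no gene. So few genes were taken from so many that separate sets are likely for most genes, and nothing is read from it.

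Immediate-early genes, which neurons transcribe within minutes of activity, were followed beside Eomes. Of 15 on the list, 14 were tested and 13 were lower in shYthdf2 (49.2% of all genes were lower), with a median log2 fold change of -2.51. Those that fell past the adjusted threshold were Npas4 (-4.89, standard error 0.62), Nr4a3 (-3.44, standard error 0.43), Fosl2 (-2.51, standard error 0.33) and Ier2 (-1.48, standard error 0.23), with edgeR adjusted p-values from 0.0430 to 0.0496; all 4 lost the call without any one of the 4 libraries of replicates 1 and 4. Of all genes, edgeR's test called 0.604%. DESeq2 called 12 genes of the list, limma-voom 0 and the fit with the replicate block 7, against 7.67%, 0.139% and 1.35% of all genes. With the block Fosl2 and Nr4a3 lost their calls (edgeR adjusted p = 0.0525 and 0.0519). Fos, the gene of the list with the highest mean, had 22219, 6545 and 21680 normalized counts in shCtrl and 2672, 1359 and 2670 in shYthdf2 for replicates 1, 2 and 4. As for Eomes, replicate 2 was the lowest shCtrl library, but it was also the lowest shYthdf2 library.
Within the list, the order of the 6 libraries was that of Eomes for Fosl2 and for Bdnf, the neurotrophin, with Pearson's r of 0.985 and 0.986. Bdnf had 530, 149 and 521 normalized counts in shCtrl and 30, 70 and 21 in shYthdf2, so that replicate 2 was the highest shYthdf2 library, as for Eomes. Over deviations from the group means, r with Eomes was 0.93 for Bdnf, 0.88 for Fosl2, 0.87 for Nr4a3, 0.04 for Fos and -0.33 for Junb, so that only some of the list followed Eomes within the groups. Ythdf2 had r of 0.61 with Eomes over the levels and of -0.92 over the deviations, where in each group the library of replicate 2 was at the opposite end from its Eomes level. Whether the level of Eomes depends on activity in these cultures was not tested.

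The word GGACT, the form of the m6A consensus that is methylated most often, was counted in the longest protein-coding transcript of each member in the GENCODE annotation of GRCm38. Eomes-201 (3560 bases) held 4, Lmx1a-201 (3347 bases) 3, Calb2-201 (1431 bases) 2 and the Plcb4 transcript (5217 bases) 4. Per kb this was 1.12 for Eomes, 0.896 for Lmx1a, 1.40 for Calb2 and 0.767 for Plcb4, against a median of 1.05 over the 13719 protein-coding genes tested. The members thus lay between the 31.7 and 69.7 percentiles, on both sides of the median, and Eomes, at the 54.7 percentile, did not stand out. A word in a transcript is not a methylated site.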

How the data were processed

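RNA-seq of 6 libraries of cultured GCs was used. The authors filtered the reads for quality, aligned them to GRCm38 (HISAT, TopHat2) and deposited HTSeq counts per gene, not normalized, as the study's methods describe. The submitters' processing notes name Bowtie 0.12.2 and mm9 in their place; the table holds 53421 genes, of which 52489 have a symbol in the GENCODE annotation of GRCm38, and 785 are outside any annotation. Use of strand in counting is not given in the sources used here.
Tests on the deposited counts used edgeR 4.0.16 (R 4.3.3; filterByExpr with a minimum count of 10 and a total of 15, TMM, quasi-likelihood test, Benjamini-Hochberg over 17214 genes, which hold 99.8% of the counts). DESeq2 1.42.0 and limma 3.58.1 (voom) were alternatives, with other size factors and filters, the replicate number as a block, a term for replicate 2, and each library left out. A gene was called at an adjusted p-value under 0.05. Scripts were tested on simulated data, drawn with the dispersions of the edgeR fit. There 18.7% of DESeq2's calls were genes simulated without a change, against 4.49% for edgeR, 4.83% with the block and 3.38% for limma-voom.
Groups were taken from the library names. Group means of median-of-ratios normalized counts matched the groups of the study's table within 0.1 percent for 923 of 923 genes with the names and for 0 with the titles. Libraries with the same number deviated together from their group means (r of 0.251 in replicate 1, 0.362 in 2 and 0.291 in 4), so a fit with the number as a block was run beside the tests given, which have no block; the labels do not say what a number stands for. All libraries of a group differed by more than counting noise (chi-square per degree of freedom 3.34 to 54.8). Where separate cultures are not shown by the labels, p-values measure only the spread between these libraries. Genes with few counts are measured with less precision.
The members and lists were chosen with earlier results of these data known. Genes named were the members, Ythdf2, the genes of the unipolar brush cell list, tested genes of the glutamate receptor signalling, T-box, LIM-homeodomain, calcium buffer, phospholipase C beta and lineage lists, called genes and the most abundant gene of the 9 lists for other cell types and the immediate-early list, genes that overlap a member, and the genes most like each member (10 for Eomes, 3 for the others); Lmx1b, T, Pcp2, Pcp4, Ppp1r17, Bdnf, Junb, Rora and Gad1 (under the block) were added after their values were seen. Some genes of these lists enter the counts and medians but are not reported here.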

Additional observations from a re-analysis of the deposited data

How the results depend on the processing

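Among the alternatives tried, the 4 members kept the sign of their log2 fold changes, and Eomes moved by more than the spread between replicates only without both libraries of replicate 2 (-2.34). Leaving out single libraries, the values ran from -2.17 to -1.62 for Eomes, -0.79 to -0.21 for Lmx1a, 0.44 to 1.02 for Calb2 and 0.35 to 0.48 for Plcb4. Of the unipolar brush cell list, 0 genes passed the adjusted threshold, against 2 with DESeq2, 1 without a filter, 1 with at least 10 counts in every library, 5 with a term for replicate 2, 7 without replicate 2 and 0 to 4 with a library left out. These counts hold the members, which were chosen on this comparison, and nothing is read from them; of the 9 others, 2 passed with a term for replicate 2, 3 without replicate 2, 1 (Slc17a6) without replicate 2 of shCtrl and 0 in the other alternatives. Of the 131 tested genes found only in the other lists, 5 passed, against 25 with DESeq2, 1 with limma-voom, 17 without a filter, 53 with a term for replicate 2, 100 without replicate 2 and 0 to 66 with a library left out. Under the replicate block, 0 of the unipolar brush cell list passed, 10 of the other lists and 232 of all genes against 104, and Fosl2 and Nr4a3 lost their calls (adjusted p = 0.0525 and 0.0519). Tbr1 changed sign without replicate 2 (-0.13) and without replicate 2 of shYthdf2 (range with a library left out -0.06 to 0.73); the cause was not tested. Over all genes the count was 1321 with DESeq2, 24 with limma-voom, 639 without a filter, 3799 with a term for replicate 2, 9186 without replicate 2 and 0 to 3239 with a library left out, with 0 without any one library of replicates 1 and 4.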
